A study of Rattus norvegicus with 6 samples.

Results

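The activity-regulated immediate early genes described here are 10 genes, Fos, Fosb, Junb, Atf3, Egr1, Egr3, Nr4a1, Ier2, Dusp1 and Btg2, taken by symbol from a deposited table of 21028 rat gene models. Each symbol had 1 gene model. The choice used the names alone and no measured value, although earlier results of these data were known when the genes were chosen. Expression was measured by poly(A) RNA sequencing of the sciatic nerve of 6 female wild-type rats whose nerve was repaired with a conduit. The PLLARS_US group (n = 3) received a PLLARS conduit together with ultrasound stimulation, and the PCL group (n = 3) received a PCL conduit and no ultrasound. By the title of the study, the device was piezoelectric, biodegradable and built on Rochelle salt. Material and ultrasound differed together, so their parts in a difference cannot be told apart. The age of the rats, the time after surgery and the interval between the last ultrasound session and collection were given neither in the labels nor in the table.

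Immediate early genes are transcribed within minutes of a stimulus from factors already present in the cell, and most of their transcripts are short-lived. Calcium entry, cyclic AMP and MAP kinase signals reach them through CREB, which binds the cyclic AMP response element (CRE), and through serum response factor with its ETS partners, which bind the CArG box of serum response elements. In neurons they report electrical activity. In injured nerve several of them also belong to the repair response of Schwann cells and to the response of macrophages and fibroblasts to injury. Fos, FosB and JunB are subunits of the AP-1 transcription factor, ATF3 is a stress-induced bZIP factor, EGR1 and EGR3 are zinc finger factors and NR4A1 is an orphan nuclear receptor. IER2 is a nuclear protein, DUSP1 dephosphorylates MAP kinases, and BTG2 restrains proliferation and recruits the machinery that shortens poly(A) tails.

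The promoter letters through which such signals act are shown for 4 members, 3 with a full CRE and 1 with CArG boxes. The Egr1 window also holds the shorter CRE core TGACG, described below. The windows are the 250 bases before the RefSeq gene start in the rat assembly GRCr8, read on the strand of the gene. Capitals mark CRE matches (TGACGTCA, a palindrome that reads the same on both strands) in the first 3 windows and CArG box matches in the Egr1 window. Ier2 lies at chr19:40399123-40399372 on the plus strand, Dusp1 at chr10:17184603-17184852 on the plus strand, Btg2 at chr13:48087691-48087940 on the minus strand and Egr1 at chr18:26736828-26737077 on the plus strand.
Ier2: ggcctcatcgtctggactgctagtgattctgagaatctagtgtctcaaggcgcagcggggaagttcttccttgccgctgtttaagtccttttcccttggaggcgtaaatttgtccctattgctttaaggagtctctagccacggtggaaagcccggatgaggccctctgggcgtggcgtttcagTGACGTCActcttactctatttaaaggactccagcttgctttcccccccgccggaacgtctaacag
Dusp1: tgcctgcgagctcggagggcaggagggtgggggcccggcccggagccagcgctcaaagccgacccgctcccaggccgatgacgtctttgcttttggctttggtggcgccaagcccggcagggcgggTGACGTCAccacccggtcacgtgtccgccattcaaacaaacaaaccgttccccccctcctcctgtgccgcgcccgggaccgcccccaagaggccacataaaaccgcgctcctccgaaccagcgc
Btg2: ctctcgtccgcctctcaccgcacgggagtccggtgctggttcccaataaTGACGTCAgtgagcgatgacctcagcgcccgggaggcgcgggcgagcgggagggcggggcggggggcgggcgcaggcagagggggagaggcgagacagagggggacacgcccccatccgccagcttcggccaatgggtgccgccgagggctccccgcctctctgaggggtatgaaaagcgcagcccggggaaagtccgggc
Egr1: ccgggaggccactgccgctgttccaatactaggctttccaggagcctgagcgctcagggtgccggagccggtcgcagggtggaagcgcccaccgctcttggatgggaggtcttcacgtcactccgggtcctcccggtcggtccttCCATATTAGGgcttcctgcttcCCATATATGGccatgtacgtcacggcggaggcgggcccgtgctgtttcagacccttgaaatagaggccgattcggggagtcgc

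Of the 10 members, 7 had a window in the RefSeq table, and Fos, Egr3 and Atf3 did not. The full CRE was present in 3 of the 7, Ier2, Dusp1 and Btg2, and in 1.59% of 33469 RefSeq windows of the same length. It began 66 bases before the start in Ier2, 124 in Dusp1 and 201 in Btg2. The CArG box, which allows only A or T at its 6 central positions, was found in Egr1 at 105 and 83 bases before the start, against 1.5% of all windows. The shorter CRE core TGACG, searched on both strands and lying inside every full CRE, was found in 6 of the 7, all but Fosb, against 18.2% of all windows. The EGR site GCGNGGGCG was found in Nr4a1 and Btg2, against 4.29% of all windows. Neither the AP-1 site (TGACTCA or TGAGTCA) nor the NGFI-B response element AAAGGTCA was found in the 7 windows, against 4.05% and 1.24% of all windows. A match describes letters in a window and shows no binding.

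**Figure D1:**
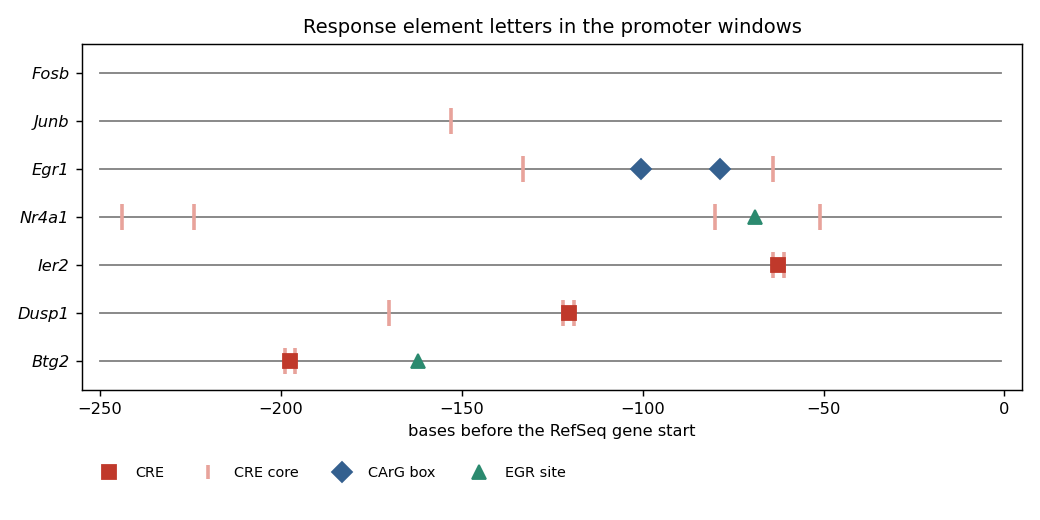
Positions of response element letters in the 250 bases before the RefSeq gene start of 7 members (x axis, bases before the start; 1 line per gene). Squares mark a full CRE, present in Ier2, Dusp1 and Btg2, ticks the CRE core, diamonds the CArG boxes of Egr1 and triangles an EGR site.

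The authors deposited FPKM, in which fragment counts are divided by transcript length and library depth. Whole fragment counts could be recovered from them (see the processing summary), which placed the depth at 15640000 to 16360000 fragments in the PLLARS_US libraries and 15320000 to 16690000 in the PCL libraries. Every member was well covered: the lowest count of any member in any library was 208 fragments, for Fosb in PCL replicate 1, where counting error is 6.93%. Across all 13720 gene models with a mean of at least 1 FPKM, limma with Benjamini-Hochberg adjustment called 0 at an adjusted p under 0.05, and 960 (7.00%) had an unadjusted p under 0.05. Tissue makeup varied between libraries within both groups. The 9 skeletal muscle markers in the table summed to 13430, 21.45 and 2699 FPKM in PLLARS_US replicates 1 to 3 and to 101, 1153 and 8549 FPKM in PCL replicates 1 to 3. PLLARS_US replicate 1 and PCL replicate 3, called muscle-rich below, had the most muscle RNA and the lowest level of Sox10, the transcription factor that defines Schwann cells, at 33.3 and 31.6 FPKM against 69.1 to 90.7 FPKM in the other libraries. Of 8 markers of neuronal cell bodies, Tubb3 and Prph alone reached 1 FPKM, and Elavl3 was listed at 0 in every library but PCL replicate 3. In bulk tissue, fewer cells of a type and less RNA per cell cannot be told apart.

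No member passed the test for a difference between the groups. All 10 members passed the filter on low values, 8 were lower and 2 higher in PLLARS_US nerves, and 0 were called, as were 0% of all genes tested. Adjusted p ran from 0.751 to 0.983 (limma, Benjamini-Hochberg over 13720 genes), and no member reached an unadjusted p under 0.05, against 1.99% of all genes tested that did so with a higher value and 5.01% with a lower one. The median log2 difference of the members, PLLARS_US minus PCL on log2(FPKM + 1), was -0.28, against -0.04 over all genes tested, of which 57.0% were lower. That median rested on 1 rat: without PCL replicate 2 it was 0.02, and 5 members were lower.

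Within the AP-1 family, Fos (ENSRNOG00000008015), the prototype of the class, had 71.0, 37.6 and 73.6 FPKM in PLLARS_US nerves, against 53.0, 169 and 100.2 FPKM in PCL nerves. The PLLARS_US values lay above the lowest PCL value in 2 of 3 rats, and PCL replicate 2 stood highest by far. The log2 difference was -0.72 (SE 0.47, 95% interval -1.87 to 0.42, adjusted p 0.849, limma). Fos was lower on average under all 18 alternative analyses, but the size hung on single PCL rats, at -0.32 without PCL replicate 2 and -1.15 without PCL replicate 1.

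Fosb (ENSRNOG00000046667), the close relative of Fos that stimulation induces in parallel, was the scarcer of the pair. It had 3.89, 7.50 and 8.41 FPKM in PLLARS_US nerves, against 3.63, 20 and 7.72 FPKM in PCL nerves. PCL replicate 2 alone stood out, and the other 5 libraries overlapped. Between the groups it differed by -0.37 on the log2 scale (SE 0.57, adjusted p 0.954, limma), and it was 0.20 without PCL replicate 2. The ratio of Fos to Fosb FPKM ran from 5.0 to 18.3 in PLLARS_US nerves and from 8.43 to 14.6 in PCL nerves.

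Junb (ENSRNOG00000042838), a JUN-family partner of Fos, showed the narrowest PCL group relative to its level. Junb had 139, 80.6 and 77.0 FPKM in PLLARS_US nerves, against 125, 139 and 129 FPKM in PCL nerves. PLLARS_US replicates 2 and 3 lay below every PCL library, and PLLARS_US replicate 1, the muscle-rich library, lay at the top of the PCL range. The log2 difference was -0.45 (SE 0.25, 95% interval -1.05 to 0.15, adjusted p 0.813, limma). Without both muscle-rich libraries, PLLARS_US replicate 1 and PCL replicate 3, it was -0.73 with an unadjusted p of 0.00111 and an adjusted p of 0.251 (limma). In that setting 1871 of 13706 genes had an unadjusted p under 0.05. With the muscle marker level as a covariate and all 6 libraries kept, the Junb difference was -0.44 (unadjusted p 0.1, adjusted p 0.687, limma). The Junb gene model is 1783 bases long, and its FPKM stand for 4054, 2323 and 2146 fragments in PLLARS_US nerves and 3402, 3930 and 3826 in PCL nerves, so counting error is small beside the spread between rats.

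Atf3 (ENSRNOG00000003745), which injury induces in Schwann cells and neurons, had the highest mean FPKM of the members, though not beyond the spread, and was the one that departed most from the others. Atf3 had 59.6, 201 and 160.5 FPKM in PLLARS_US nerves, against 124, 117 and 74.0 FPKM in PCL nerves. The muscle-rich library was the lowest of each group, and PLLARS_US replicates 2 and 3 stood above all PCL libraries. The mean was higher by 0.28 on the log2 scale (SE 0.48, 95% interval -0.89 to 1.45, adjusted p 0.956, limma). Without both muscle-rich libraries it was 0.57, with an unadjusted p of 0.0119 and an adjusted p of 0.279 (limma). In that setting 1871 of 13706 genes had an unadjusted p under 0.05. With the muscle marker level as a covariate and all 6 libraries kept, the Atf3 difference was 0.25 (unadjusted p 0.449, adjusted p 0.856, limma). The part of tissue makeup in this difference was not tested.

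**Figure D2:**
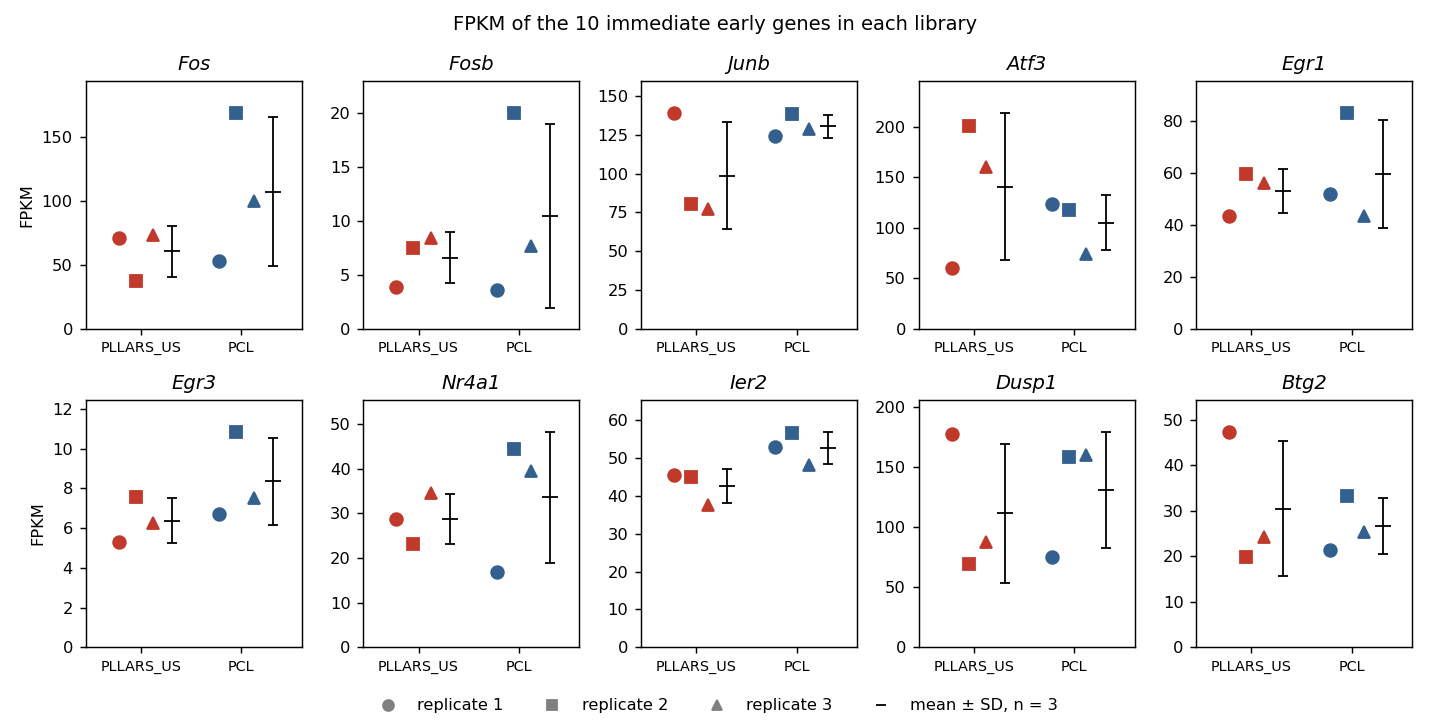
FPKM of each of the 10 members (y axis, from 0) in the 3 PLLARS_US and 3 PCL libraries; marker shape gives the replicate, and the bar beside each group is the mean ± SD (n = 3). PCL replicate 2 is the highest library for Fos, Fosb, Egr1, Egr3, Nr4a1 and Ier2, and only for Ier2 do the groups not overlap.

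Among the zinc finger and nuclear receptor genes, Egr1 (ENSRNOG00000019422), a target of serum response factor, had 43.6, 59.7 and 56.2 FPKM in PLLARS_US nerves, against 52.1, 83.1 and 43.6 FPKM in PCL nerves. The muscle-rich libraries were the lowest of each group, at nearly equal values, and PCL replicate 2 the highest. The log2 difference was -0.12 (SE 0.27, 95% interval -0.77 to 0.52, adjusted p 0.972, limma), and it was 0.14 without PCL replicate 2. Egr3 (ENSRNOG00000017828), a relative of Egr1, had 5.30, 7.55 and 6.25 FPKM in PLLARS_US nerves, against 6.69, 10.9 and 7.51 FPKM in PCL nerves. PLLARS_US replicates 1 and 3 lay below all PCL libraries, and PCL replicate 2 was again the highest. The log2 difference of Egr3 was -0.33 (SE 0.22, 95% interval -0.86 to 0.20, adjusted p 0.849, limma). The ratio of Egr1 to Egr3 FPKM was 7.91 to 8.98 in PLLARS_US nerves and 5.81 to 7.79 in PCL nerves, a narrower range than that of Fos to Fosb.

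Nr4a1 (ENSRNOG00000007607) had 28.7, 23.1 and 34.4 FPKM in PLLARS_US nerves, against 16.8, 44.3 and 39.5 FPKM in PCL nerves. The PLLARS_US values all fell inside the PCL range, whose lowest member was PCL replicate 1. The log2 difference was -0.12 (SE 0.38, 95% interval -1.05 to 0.80, adjusted p 0.983, limma). Without PCL replicate 1 it was -0.55, with an unadjusted p of 0.0473 and an adjusted p of 0.827, and without PCL replicate 2 it was 0.13 (limma).

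Ier2 (ENSRNOG00000054344) was the 1 member whose groups did not overlap. Ier2 had 45.5, 45.0 and 37.5 FPKM in PLLARS_US nerves, against 53.0, 56.7 and 48.1 FPKM in PCL nerves. Every PLLARS_US library lay below every PCL library, by a narrow margin. Such an order was found for 10% of all genes tested, so 1 of 10 members is the share of the background. Ier2 averaged 42.7 ± 4.47 FPKM in PLLARS_US nerves and 52.6 ± 4.30 FPKM in PCL nerves (SD, n = 3 each). On the log2 scale it was lower, at -0.30 (SE 0.13, 95% interval -0.62 to 0.03, unadjusted p 0.0666, adjusted p 0.751, limma). Ier2 was lower under all 18 alternatives, from -0.42 to -0.21, with adjusted p no lower than 0.102. It was also the steadiest member: its within-group SD of 0.14 on the log2 scale stood at percentile 16.5 of all genes tested.

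Of the feedback and growth regulators, Dusp1 (ENSRNOG00000003977) had 178, 69.3 and 87.8 FPKM in PLLARS_US nerves, against 75.1, 158 and 160.0 FPKM in PCL nerves. High and low libraries occurred in both groups: PLLARS_US replicate 1 and PCL replicates 2 and 3 were high, and the other 3 were low. Dusp1 differed by -0.27 on the log2 scale (SE 0.45, 95% interval -1.36 to 0.82, adjusted p 0.955, limma). Btg2 (ENSRNOG00000003300) had 47.3, 19.9 and 24.1 FPKM in PLLARS_US nerves, against 21.3, 33.3 and 25.3 FPKM in PCL nerves. PLLARS_US replicate 1 alone made the PLLARS_US mean the higher one. Btg2 differed by 0.11 on the log2 scale (SE 0.35, 95% interval -0.73 to 0.95, adjusted p 0.983, limma), and it was -0.25 without PLLARS_US replicate 1. That library also had the highest sum of 9 neutrophil markers, 450 FPKM against 50.7 to 119 FPKM in the other libraries. PCL replicates 2 and 3, where Dusp1 was also high, had neutrophil sums of 119 and 52.3 FPKM. The muscle and macrophage marker sums were also highest in PLLARS_US replicate 1, at 13430 and 11310 FPKM. The part of any of these cells in the Dusp1 and Btg2 levels was not tested.

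**Figure D3:**
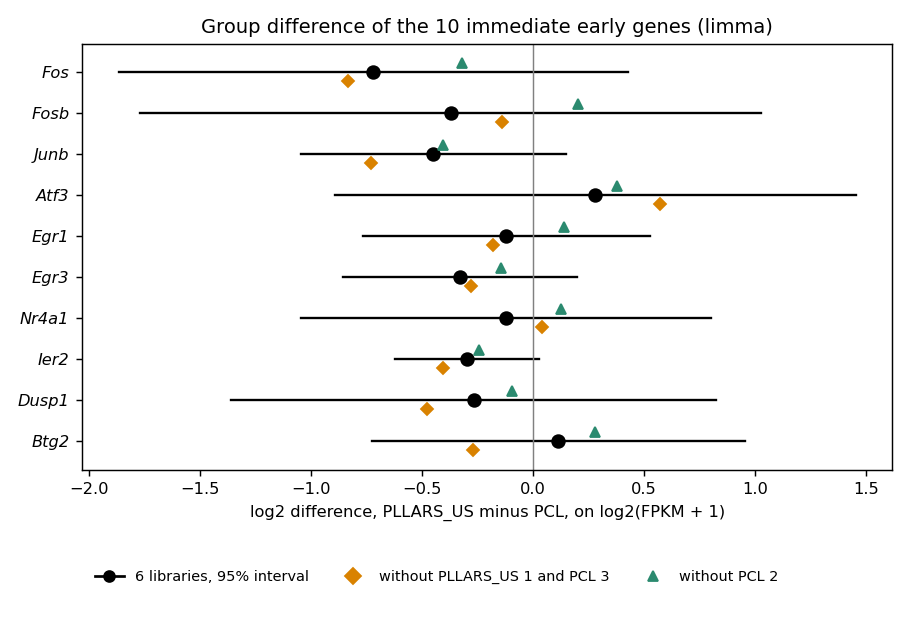
Log2 difference of each member, PLLARS_US minus PCL (x axis, log2(FPKM + 1) scale), from limma with all 6 libraries (circle, with its 95% interval), without the 2 muscle-rich libraries (diamond) and without PCL replicate 2 (triangle). All 10 intervals include 0, and Fosb, Egr1 and Nr4a1 lie on the other side of 0 without PCL replicate 2.

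Positions are those deposited, in a rat build that could not be named. Fos spans bases 109300433 to 109303299 of chromosome 6 (plus strand), and Egr1 spans bases 27657628 to 27661429 of chromosome 18 (plus strand). Junb (minus strand of chromosome 19 from 26092974 to 26094756) and Ier2 (minus strand of chromosome 19 from 25774143 to 25775659) lie on the same chromosome. In GRCr8 the promoter windows of both lie on the plus strand of chromosome 19, so the strand of these genes differs between the builds. Atf3 (from 109817728 to 109849632) and Btg2 (from 50913180 to 50916982) are both on the minus strand of chromosome 13.

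Ranked by mean FPKM over the 6 libraries, the members ran from Atf3 at 123, Dusp1 at 121 and Junb at 115 through Fos at 84.0, Egr1 at 56.4, Ier2 at 47.7, Nr4a1 at 31.1 and Btg2 at 28.5 to Fosb at 8.52 and Egr3 at 7.36. FPKM are scaled to length, so levels can be set side by side between genes. The ranges of neighbours in this order overlapped, those of Btg2 and Fosb only at their edges, and the first 3 cannot be ordered beyond their spread. Between libraries the members varied by different amounts. The highest library was 5.51 times the lowest for Fosb, 4.49 times for Fos, 3.37 times for Atf3 and 1.51 times for Ier2. The within-group SD of 9 members, all but Ier2, was above the median of all genes tested, which was 0.27 on the log2 scale, with Fosb at percentile 92.3, Atf3 at 88.5, Fos at 88.0 and Dusp1 at 86.6.

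The members did not move as 1 unit across the rats. In PCL replicate 2, though, all 10 members lay above their own 6-library mean, by 0.06 (Atf3) to 1.34 (Fosb) on the log2 scale. Of these, 6 had their highest value there. The share of all genes tested that lay above their own means there was not counted. The median ratio of a gene to its geometric mean over the libraries was 1.075 there, against 0.8892 to 1.052 in the other libraries. In PCL replicates 1 and 3, 3 and 7 members lay above their means, and in PLLARS_US replicates 1 to 3 it was 3, 4 and 4. The sum of 7 fibroblast markers was 4375, 5968 and 6622 FPKM in PLLARS_US nerves, against 6989, 7117 and 3642 FPKM in PCL nerves, highest in PCL replicate 2 and close to it in PCL replicate 1. In PCL replicate 2 the sums of muscle, neutrophil, Schwann cell and macrophage markers lay inside the range of the other libraries. The part of tissue makeup in the high values was not tested. In PLLARS_US replicate 1, Btg2, Dusp1 and Junb lay 0.77, 0.65 and 0.32 above their own means, while Atf3 and Fosb were at -0.91 and -0.77.

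**Figure D4:**
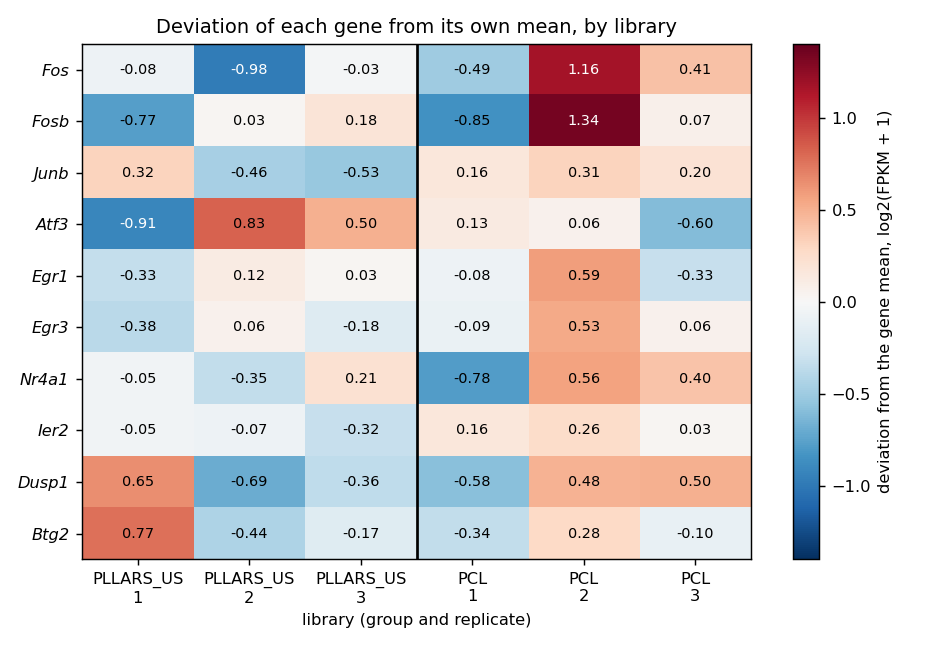
Deviation of each member (rows) from its own mean over 6 libraries (columns; log2(FPKM + 1) scale, red above and blue below the mean). The PCL replicate 2 column is above the mean for all 10 genes, while Atf3 is highest in PLLARS_US replicates 2 and 3.

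Likeness between genes was measured as the root mean square difference of their deviations over the 6 libraries, given here as a description. The measure is not scaled to how much a gene varies. Genes that vary little, such as Ier2, therefore come out close, and genes that vary widely can come out distant despite a shared peak. The closest pair was Egr1 and Egr3, at 0.18 on the log2 scale, followed by Egr3 and Ier2 at 0.22 and by Junb and Ier2 at 0.25. Dusp1 and Btg2 stood at 0.31 and Fos and Nr4a1 at 0.385, while Fos and Fosb stood at 0.55. The most distant pairs were Atf3 with Dusp1, at 1.11, and Atf3 with Fos, at 1.07. Among the other AP-1, EGR and NR4A genes, those nearest to Atf3 were Fosl2 at 0.16, Batf3 at 0.27 and Jun at 0.36. Jun, the AP-1 subunit that drives the repair state of Schwann cells, had 127, 219 and 197 FPKM in PLLARS_US nerves, against 162, 153 and 69.1 FPKM in PCL nerves. As with Atf3, its lowest value in each group was that of the muscle-rich library. Outside the members, the 6 tested genes nearest to the average profile of the members were Hoxb2, Zfp566, AABR07052486.1, Slc35d1, Tnnc1 and LOC691427, at 0.08 to 0.11. All 6 were scarce, with mean FPKM of 1.12 to 3.63, where log2(FPKM + 1) compresses differences. All were highest in PCL replicate 2, which follows from the choice, since the average profile peaked there at 0.557.

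The other genes of the immediate early response were described by lists chosen with earlier results of these data known. None of their genes was called by limma over all genes tested (0%). The 11 other AP-1 and bZIP genes had 7 higher and 4 lower, with a median log2 difference of 0.03. JunD, the AP-1 subunit that is present without a stimulus, had 117, 134 and 141 FPKM in PLLARS_US nerves, against 142, 163 and 185 FPKM in PCL nerves for its gene Jund. The groups did not overlap, by less than 1 FPKM, and the log2 difference of Jund was -0.31 (SE 0.15, adjusted p 0.793, limma). Jun, at a log2 difference of 0.55, and Jdp2, a repressor of AP-1, at -0.48, had adjusted p of 0.853 and 0.813 (limma).

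Of 5 other EGR, NR4A and NAB genes, 4 were lower and 1 higher, with a median of -0.29. Nab2, a corepressor that binds EGR proteins and is itself induced by them, had 5.54, 6.47 and 5.71 FPKM in PLLARS_US nerves, against 7.36, 9.52 and 9.01 FPKM in PCL nerves. The groups did not overlap, and the log2 difference was -0.47 (SE 0.15, unadjusted p 0.0178, adjusted p 0.585, limma). Its relative Nab1 had 12.2, 16.2 and 17.0 FPKM in PLLARS_US nerves, against 19.0, 19.1 and 17.6 FPKM in PCL nerves, also without overlap. Egr2, the factor that drives myelination in Schwann cells, had 22.8, 13.3 and 13.5 FPKM in PLLARS_US nerves, against 12.6, 34.3 and 41.8 FPKM in PCL nerves. Its groups overlapped, and the log2 difference was -0.69 (SE 0.47, adjusted p 0.849, limma). It was -0.37 without PCL replicate 3, and -1.19 without PCL replicate 1, with an unadjusted p of 0.00776 and an adjusted p of 0.726 (limma).

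Of 14 genes that activity induces in neurons, 4 (Npas4, Nptx2, Vgf and Scg2) were under the filter, while Plk2, Rgs2 and Gadd45b averaged 121, 60.8 and 41.5 FPKM over the 6 libraries. The 10 tested genes had 5 higher, 5 lower and a median of 0.02, which was -0.23 without PCL replicate 3. Arc, the synaptic gene most used to mark active neurons, had 1.21, 1.12 and 0.93 FPKM in PLLARS_US nerves, against 1.12, 1.5 and 1.09 FPKM in PCL nerves, with no separation. Npas4, a factor induced by calcium entry in neurons, was listed at 0 in 2 PLLARS_US libraries and 1 PCL library and was at most 0.078 FPKM in the others. Bdnf, a neurotrophin gene, had 1.06, 5.68 and 3.96 FPKM in PLLARS_US nerves, against 4.12, 4.47 and 0.24 FPKM in PCL nerves, lowest in the muscle-rich library of each group. Plk2, a kinase gene named for its p within the list along with Rgs2 and Inhba, had a log2 difference of 0.62 (SE 0.94, limma), and Rgs2 and Inhba had -0.51 and -0.20, with adjusted p of at least 0.813 for all 3 (limma).

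Among 27 other primary response genes, 10 were higher and 17 lower, with a median of -0.12, which was -0.25 without PLLARS_US replicate 1 and -0.04 without PCL replicate 2. Socs3, the inhibitor of cytokine receptor signalling through JAK and STAT, had 65.4, 58.7 and 65.2 FPKM in PLLARS_US nerves, against 102, 84.1 and 77.8 FPKM in PCL nerves. The groups did not overlap, with a log2 difference of -0.46 (SE 0.14, unadjusted p 0.0168, adjusted p 0.579, limma). Rhob, a small GTPase of actin and endosome traffic, averaged 158 ± 6.50 FPKM in PLLARS_US nerves and 192 ± 11.9 FPKM in PCL nerves (SD, n = 3 each), again without overlap. Gadd45a, a DNA damage and stress gene, was higher, with 152, 88.0 and 80.7 FPKM in PLLARS_US nerves, against 79.5, 59.6 and 25.2 FPKM in PCL nerves. Its log2 difference was 1.04 (SE 0.47, adjusted p 0.751, limma), and it was 0.57 without PCL replicate 3 and 0.29 without both muscle-rich libraries. Groups without overlap in the higher direction made up 4.33% of all genes tested.

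The list of MAP kinase feedback inhibitors had 3 of 12 genes higher and 9 lower, with a median of -0.22, which was -0.035 without PLLARS_US replicate 1. Dusp4, a nuclear MAP kinase phosphatase related to Dusp1, had 4.66, 3.61 and 3.41 FPKM in PLLARS_US nerves, against 5.14, 6.72 and 8.48 FPKM in PCL nerves. Its groups did not overlap, and the log2 difference was -0.66 (SE 0.21, unadjusted p 0.0204, adjusted p 0.597, limma). Dusp5, at -0.47, overlapped, and Spred1, an inhibitor of the Ras pathway, at -0.23, did not. Dusp6, the phosphatase of cytoplasmic ERK, differed by less than its spread, at 43.0 ± 4.23 FPKM in PLLARS_US nerves and 43.8 ± 4.75 FPKM in PCL nerves. The 4 other BTG and TOB genes had a median of 0.01, with Btg1 at 0.07, Tob1 at 0.29 and Tob2 at -0.06.

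Of 18 tested kinases and factors upstream of the immediate early genes, 7 were higher and 11 lower, with a median of -0.08. In 5 of the 18 the PLLARS_US libraries lay below all PCL libraries, set beside 10% of all genes tested, and the list was not tested as a whole. These 5, were Mrtfa, Elk3 and Srf, named for the smallest p of the list, and Elk1 and Rps6ka3, named after their values were seen. Srf, the serum response factor itself, had 15.3, 16.6 and 16.1 FPKM in PLLARS_US nerves, against 20.2, 21.6 and 17.0 FPKM in PCL nerves, a log2 difference of -0.27 (SE 0.13, adjusted p 0.789, limma). Mrtfa, its actin-regulated coactivator, had 6.71, 11.3 and 10.5 FPKM in PLLARS_US nerves, against 12.9, 13.0 and 12.3 FPKM in PCL nerves, a log2 difference of -0.42 (SE 0.20, adjusted p 0.789, limma). Elk3, an ETS partner of serum response factor, averaged 35.3 ± 3.93 FPKM in PLLARS_US nerves and 43.1 ± 4.03 FPKM in PCL nerves. Its relative Elk1 averaged 12.9 ± 1.08 FPKM in PLLARS_US nerves and 14.5 ± 0.267 FPKM in PCL nerves. Creb1, which encodes the factor that binds the CRE, was higher by 0.21, with overlap, and Mapk14, the gene of the p38 stress kinase, was higher by 0.12 without overlap, also named after its values were seen.

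Of 7 heat shock genes, 6 were higher and 1 lower, with a median of 0.18, which was -0.0136 without PLLARS_US replicate 1. Hspb1, a small heat shock protein, had 269, 52.6 and 54.6 FPKM in PLLARS_US nerves, against 44.0, 37.1 and 34.6 FPKM in PCL nerves. The groups did not overlap, but the log2 difference of 1.24 (SE 0.63, adjusted p 0.799, limma) leaned on PLLARS_US replicate 1, without which it was 0.47 (unadjusted p 0.019, adjusted p 0.517). Hsp90aa1 differed by 1.18 and Bag3 by 0.37, each highest in that same library and each with overlap. Hspb1 was the 1 gene of the 7 without overlap, set beside 4.33% of all genes tested in the higher direction.

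**Figure D5:**
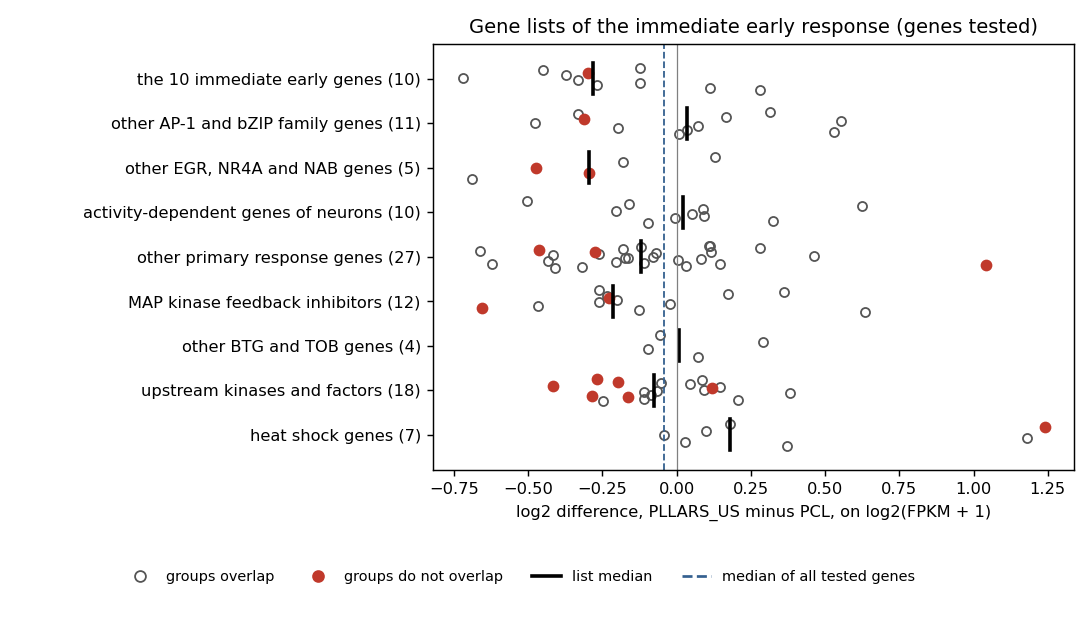
Log2 difference, PLLARS_US minus PCL (x axis, log2(FPKM + 1) scale), of every tested gene of the 10 members and 8 further lists (rows, with the number tested). Filled circles are genes whose groups do not overlap, bars the list medians and the dashed line the median of all tested genes, -0.04.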

How the data were processed

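The authors deposited FPKM values, per the name of the deposited workbook, with 1 column per library; a second sheet repeated them and was not used. The tools named, with no roles, are StringTie 1.3.3b, HISAT2 2.1.0, DESeq 1.28.0 and FastQC 0.11.5, per the submitters' processing notes. Those notes give the human build hg38, although the gene identifiers belong to rat. Poly(A) libraries were sequenced in pairs, per the labels' protocols; strandedness is not stated, so a gene and an overlapping antisense gene could share reads. Groups came from sample titles. Each library was treated as 1 rat. The p-values set the group difference against the spread between libraries, which limma moderates over all genes tested.

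The design fixed limma 3.58.1 (R 4.3.3) on log2(FPKM + 1), for a mean FPKM of at least 1, with trended variances, a model of group alone and p adjusted by Benjamini-Hochberg over 13720 genes at 0.05. Members and lists were chosen with earlier results of these data known. Genes named outside the members were the 3 of smallest p in each list, since none passed, and the 6 nearest to the members' mean profile; further ones were chosen after their values were seen. The Egr4, Mcl1, Mkl2 and Hspa1a entries were not analysed here.

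FPKM times a whole model length and depth gave whole fragments, to within 0.01 of a fragment plus 2e-06 of the count, in all libraries for 13706 of 13720 genes (99.9%); depth came from 1123 low values of small RNA models, all whole within 0.03, refined on Junb. Those counts were used for depth and for limma voom, an alternative added after seeing the data. Errors of counting cover counting alone, while the 95% intervals of limma are built on the spread between libraries. The limma script was tested on simulated data. RefSeq supplied promoters (GRCr8).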

Additional observations from a re-analysis of the deposited data

How the results depend on the processing

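Under 18 alternatives (pseudocounts, filters, scaling, weights, covariates, left-out libraries and limma voom), 0 members were called at an adjusted p under 0.05; the lowest was 0.0627, for Junb with array weights. Fos, Junb, Egr3 and Ier2 were lower under all 18. Array weights, which gave PCL replicate 2 a weight of 5.61, called 118 genes and put Btg2 at -0.40. With them, 2827 of 13720 genes and 4 of 10 members had an unadjusted p under 0.05 (limma). A muscle covariate called 4 genes. Without both muscle-rich libraries, 1871 of 13706 genes and 3 of 10 members had an unadjusted p under 0.05 (limma). In that setting Nr4a1 stood at 0.0393, Btg2 at -0.27 and Bag3 at -0.0538. With no filter, 1254 of 21028 genes and 1 of 10 members had an unadjusted p under 0.05 (limma). Median-ratio scaling put the BTG and TOB median at 0.0687 and Tob2 at 0.0033, and a filter of 5 FPKM put the EGR, NR4A and NAB median at -0.47. Limma voom, added after seeing the data, called 0 genes, and 931 had an unadjusted p under 0.05.

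Leaving out 1 library at a time, the count called ran from 0 to 3 genes, and the unadjusted count from 571 (without PCL replicate 2) to 1252 (without PLLARS_US replicate 1). The members at an unadjusted p under 0.05 ran from 0 to 2, those lower from 5 to 9, and their median from -0.47 to 0.0165. List medians ran from -0.22 to 0.14 (AP-1 and bZIP), -0.43 to -0.16 (EGR, NR4A and NAB), -0.23 to 0.11 (neuronal activity), -0.25 to -0.0406 (other primary response), -0.23 to -0.035 (MAP kinase feedback), 0.0142 to 0.0921 (BTG and TOB), -0.14 to 0.0413 (upstream) and -0.0136 to 0.35 (heat shock). Differences that turned round ran from -0.89 to 0.20 (Fosb), -0.0635 to 0.80 (Atf3), -0.32 to 0.14 (Egr1), -0.55 to 0.13 (Nr4a1), -0.66 to 0.0112 (Dusp1), -0.25 to 0.36 (Btg2), -0.37 to 0.0279 (Inhba), -0.24 to 1.37 (Plk2), -0.12 to 0.0155 (Tob2) and -0.0136 to 0.58 (Bag3). The cause was not tested.

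Same-numbered libraries did not deviate together (r of -0.50, 0.15 and -0.32 across genes, which are not independent). Deviations from a mean of 3 libraries cannot show whether same-numbered rats were paired, and the main model used group alone. With a replicate block 0 genes were called and 543 had an unadjusted p under 0.05. Counting error at the lowest fragment count of any member was 6.93%.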
